A study of Mus musculus with 12 samples.

Results

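A set of 9 genes that carry glucose into muscle fibres, trap it and store it as glycogen or release it again was described in mouse plantaris, a fast muscle of the lower hind limb. They are Slc2a4, Tbc1d1, Hk2, Gys1, Gbe1, Ppp1r3c, Pygm, Pfkm and Pfkfb3. They were taken by gene symbol from the array table, which held 22180 genes with 1 symbol. All 9 members were found, and all 9 lay above the table-wide median log2 value of 4.56 on all 12 arrays. Tbc1d1 had 2 transcript clusters (sets of probes read as 1 feature) and was taken at the brighter one; the other members had 1 each.

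Glucose enters a muscle fibre through the transporter GLUT4, which waits in internal vesicles and moves to the surface membrane when the muscle contracts or insulin is present. Hexokinase then phosphorylates the sugar, which keeps it in the cell, and it is either built into glycogen or burned through glycolysis, where phosphofructokinase is the main control point. During exercise glycogen is broken down by phosphorylase, and afterwards the muscle refills its stores. Much of this control acts on proteins already present, through phosphorylation and vesicle movement, which an RNA array does not measure.

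The 12 arrays came from 4 groups of 3 male mice aged 12 weeks. They were REDD1 knockout mice after exercise, REDD1 knockout mice kept sedentary, wild-type mice after exercise and wild-type mice kept sedentary. REDD1, encoded by Ddit4, is a stress-induced protein that restrains mTORC1, a kinase complex that promotes protein synthesis. The exercised mice did 1 session of aerobic exercise, and the muscle was taken 1 hour after it ended. All 12 mice fasted for the 3 hours that preceded exercise. The strain, the design of the knockout allele and the kind and length of the exercise are not given in the sources used here. Nothing in the labels says that arrays of a group come from separate litters or extractions, so p-values measure the spread between these arrays, which may be partly technical.

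Values are the deposited log2 expression values, so a difference of 1 is a doubling, and they are compared only within a gene. Levels of different genes are not set against each other, because probe sets differ in brightness. Differences carry the standard error (SE) or 95% interval of a limma model fitted to all 12 arrays over the 13747 genes that passed the low-value filter. A gene is called where the Benjamini-Hochberg adjusted p over those genes was under 0.05. The 14 skeletal muscle fibre markers averaged between -0.04 and 0.05 of their 12-array mean on every array, and each lay at or above the 99.8th percentile of all genes. Ddit4 was lower in knockout than in wild-type arrays without overlap in both conditions (averaged log2 difference -1.54, SE 0.16, limma adjusted p = 0.000137). The difference was -2.37 after exercise (limma adjusted p = 0.00011) and -0.71 at rest, where it was not called (limma adjusted p = 0.411). Within the knockout the Ddit4 signal was 1.04 higher after exercise, without overlap (limma adjusted p = 0.0679). A pair of arrays stood apart in markers of other cells. Wild-type exercised replicate 1 had the highest Schwann cell (0.78) and smooth muscle (0.43) marker levels, as log2 differences from the 12-array mean over 5 of 8 and 8 of 8 listed markers. Knockout sedentary replicate 3 had the highest fibroblast (0.74, 7 of 8 markers) and macrophage (0.38, 8 of 8) levels. Slow-fibre marker levels varied within groups, with 0.64 in knockout exercised replicate 3, 0.61 in knockout sedentary replicate 3 and -0.66 in knockout sedentary replicate 2. Some of the results that rest on these arrays are also given without them.

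Hk2 was the member that changed most clearly. It encodes hexokinase II, the insulin- and contraction-responsive hexokinase of muscle. Its log2 levels were 10.67, 10.79 and 10.49 in exercised knockout muscle, against 9.50, 9.71 and 10.15 in sedentary knockout muscle. In wild-type muscle they were 10.48, 10.38 and 10.59 after exercise, against 9.88, 9.76 and 10 in sedentary mice. Every exercised array thus lay above every sedentary array, in each genotype and across both. In whole muscle, more RNA per cell and more cells of a type cannot be told apart. Endothelial markers (8 of 8 tested) also divided the arrays by exercise, with levels of -0.26 to -0.04 in exercised arrays and 0.08 to 0.20 in sedentary arrays as differences from the 12-array mean. Their median exercise difference, averaged over genotypes, was -0.26, with 5 of 8 at an unadjusted limma p under 0.05. The called ones, named after their values were seen, were the VEGF receptor gene Kdr (-0.80, limma adjusted p = 9.27e-05) and the cadherin gene Cdh5 (-0.28, limma adjusted p = 0.0448), both lower. In the knockout, fibroblast markers had a median exercise difference of -0.40 (0 of 7 called by limma, 4 at an unadjusted p under 0.05), with levels of -0.24 to -0.20 in exercised and -0.14 to 0.74 in sedentary arrays. The median in wild type was 0.04. Smooth muscle and pericyte markers (8 of 8 tested) also divided the knockout arrays by exercise. Their levels were -0.19 to -0.07 in exercised and 0.07 to 0.18 in sedentary knockout arrays. The median exercise difference of these markers was -0.24 in the knockout (0 of 8 called by limma, 3 at an unadjusted p under 0.05). In wild type it was 0.06. The part of other cells in the members' values was not tested.

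Hk2 rose 1.66-fold with exercise averaged over the genotypes, with 6 arrays a side (log2 difference 0.73, SE 0.10, limma adjusted p = 0.000635). It was 1 of 9 members called in this comparison, in which 1.6% of all tested genes were called; 5 of 9 had an unadjusted limma p under 0.05, against 11.2% of tested genes. An exact two-sided permutation of the exercise labels within genotype gave p = 0.005, the smallest that its 400 arrangements allow. Hk2 passed limma's threshold in the averaged comparison under every setting tried, with an adjusted p between 3.54e-05 and 0.0459.

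Within the genotypes the picture was less sharp. In the knockout Hk2 rose 1.82-fold (0.86, SE 0.14, limma adjusted p = 0.0105), 1 of 9 members called where 0.276% of tested genes were; 4 of 9 had an unadjusted p under 0.05, against 8.93% of tested genes. In wild type it was 1.52-fold higher but did not pass (0.60, SE 0.14, limma adjusted p = 0.0739), and 0 of 9 members were called where 0.567% of tested genes were; 3 of 9 had an unadjusted limma p under 0.05, against 8.21% of tested genes. The difference between these exercise effects, knockout minus wild type, was 0.26 with a 95% interval from -0.15 to 0.67, so the response was not shown to differ by genotype. The knockout call for Hk2 was lost by a small margin without knockout exercised replicate 1 (limma adjusted p = 0.0571) or knockout sedentary replicates 1 (0.0558) or 2 (0.0522). Without knockout sedentary replicate 3, whose Hk2 level was the highest of its group, the rise was 1.05 (limma adjusted p = 0.000443). In wild type, Hk2 passed without knockout sedentary replicate 3 (limma adjusted p = 0.0102) or replicate 1 (0.0361). Both omissions leave the wild-type difference at 0.60 and change only the shared estimate of spread.

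**Figure D1:**
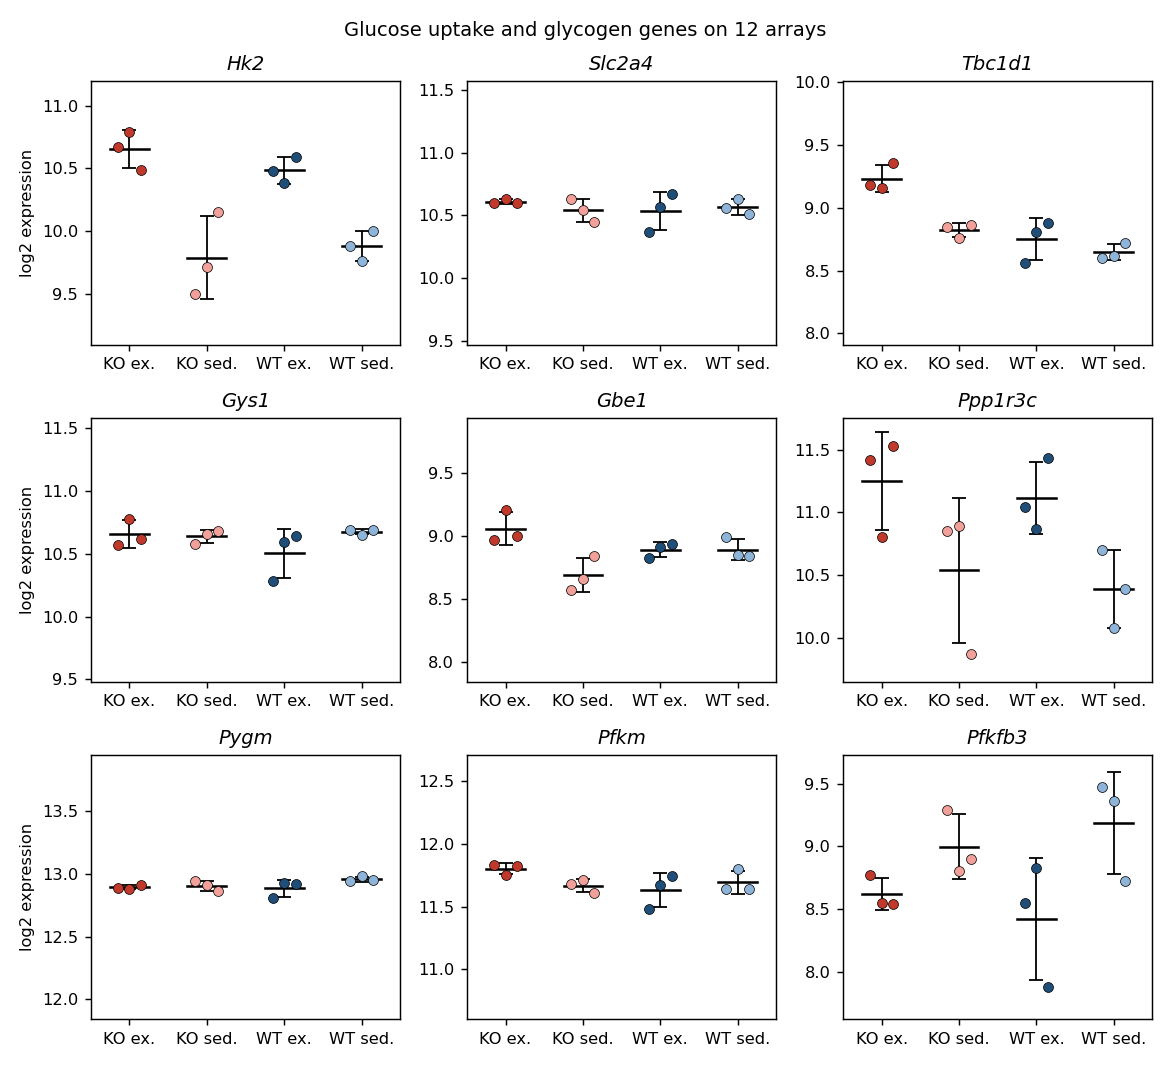
Log2 expression of the 9 genes (vertical axes, each spanning the same width of log2 units) in the 4 groups; points are single arrays, wide bars the mean and whiskers the SD of 3 arrays. Hk2 is higher in both exercised groups (10.38 to 10.79) than in both sedentary groups (9.50 to 10.15), while the 4 means of Pygm and of Slc2a4 each span 0.07.

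The 3 tested genes whose values followed Hk2 most closely over the 12 arrays were Wee1, a kinase that restrains entry into mitosis (Pearson's r = 0.970), the contraction-induced nuclear receptor Nr4a3 (0.969) and the phosphate transporter Slc20a1 (0.964). These values are descriptions over 12 arrays that share the exercise contrast, and no p is attached. In sedentary knockout muscle Nr4a3 stood at 5.62, 6.59 and 8.15 and Wee1 at 5.0, 5.08 and 5.64, so replicate 3 was the highest of its group for both, as it was for Hk2.

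The promoters of Hk2 and Ppp1r3c, the pair of members with the largest positive exercise differences, are printed from 250 bases before to 50 bases after the annotated start (RefSeq, GRCm38.p6), 5′ to 3′ on the gene's strand. Hk2 lies on the minus strand at chr6:82774405-82774704 and Ppp1r3c on the minus strand at chr19:36736555-36736854. Capitals mark the core of the cAMP response element, TGACG or its reverse complement CGTCA, and the E-box CACGTG.
Hk2: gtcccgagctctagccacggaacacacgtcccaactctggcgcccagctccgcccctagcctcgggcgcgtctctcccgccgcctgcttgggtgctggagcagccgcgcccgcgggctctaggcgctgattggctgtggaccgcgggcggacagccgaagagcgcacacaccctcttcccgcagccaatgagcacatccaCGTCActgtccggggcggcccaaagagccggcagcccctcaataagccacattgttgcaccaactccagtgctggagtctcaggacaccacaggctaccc
Ppp1r3c: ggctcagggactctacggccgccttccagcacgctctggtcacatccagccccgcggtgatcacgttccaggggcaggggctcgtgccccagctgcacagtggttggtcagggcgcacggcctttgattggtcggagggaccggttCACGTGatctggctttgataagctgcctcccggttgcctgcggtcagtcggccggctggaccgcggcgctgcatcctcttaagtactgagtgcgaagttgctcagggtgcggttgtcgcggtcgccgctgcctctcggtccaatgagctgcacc
The Hk2 window holds 1 such core, at position -50 from the start, and no E-box. The Ppp1r3c window holds 1 E-box, at position -104, and no such core. Both strands were searched. The core occurs in 20.8% and the E-box in 7.15% of the 32851 promoter windows of this length, so either is a common sequence. The full element TGACGTCA, which contains the core and occurs in 1.79% of windows, was in 0 of the 13 windows listed for 8 of the members, and so was the NR4A site AAAGGTCA (1.51% of windows). These matches are descriptions of letters and do not show binding.

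Ppp1r3c encodes a glycogen-targeting subunit of protein phosphatase 1, known as PTG, which brings the phosphatase to glycogen and favours glycogen synthesis. Its levels were 11.42, 10.80 and 11.53 in exercised knockout muscle, against 10.85, 10.89 and 9.87 in sedentary knockout muscle. In wild type they were 11.04, 10.87 and 11.43 after exercise, against 10.70, 10.08 and 10.39 in sedentary mice. The groups overlapped in the knockout, through replicate 2 of the exercised mice, and did not overlap in wild type.

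The exercise effects of Ppp1r3c differed by -0.01 between genotypes, knockout minus wild type, the smallest such difference of any member. Its limma interval, from -0.78 to 0.75, was the widest of the 9 members, so a like response was not shown. The exercise difference of Ppp1r3c was 0.71 in the knockout and 0.72 in wild type (SE 0.25 each). Neither passed over all genes (limma adjusted p = 0.367 and 0.375), and the average of 0.72, or 1.64-fold, missed the threshold at limma adjusted p = 0.063. The exact permutation within genotype gave p = 0.015 for the average, unadjusted. The average passed without knockout exercised replicate 2 (0.83, limma adjusted p = 0.0287) or knockout sedentary replicate 2 (0.81, 0.0467). The low knockout sedentary array, replicate 3 at 9.87, is the one with the highest fibroblast markers; without it the knockout difference was 0.38 (limma adjusted p = 0.79) and the average 0.55. Its part in the result beyond these values was not tested. Ppp1r3c varied most within groups of the 9 members, with a pooled SD of 0.41 against a median of 0.16 over all tested genes.

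Pfkfb3 had the largest negative exercise difference of the 9 members in each genotype. Pygm was also below 0 in both, and Gys1, Slc2a4 and Pfkm (-0.06) were below 0 in wild type. Wild-type exercised replicate 1 was the lowest of the 12 arrays for Pygm, Gys1, Slc2a4 and Pfkm. Replicates 2 and 3 of that group lay at 10.57 and 10.67 for Slc2a4 and at 11.67 and 11.74 for Pfkm. The sedentary wild-type ranges were 10.51 to 10.63 and 11.64 to 11.80. No Pfkfb3 difference passed with all 12 arrays. It encodes an enzyme that makes fructose 2,6-bisphosphate, the strongest activator of phosphofructokinase. Its levels were 8.77, 8.55 and 8.54 in exercised knockout muscle, against 9.29, 8.80 and 8.90 in sedentary knockout muscle, without overlap. In wild type they were 8.55, 8.83 and 7.88 after exercise, against 9.47, 9.36 and 8.72 in sedentary mice, with overlap. The differences were -0.37 in the knockout (95% interval -0.85 to 0.10) and -0.76 in wild type (-1.24 to -0.29).

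Over all genes the Pfkfb3 differences missed the threshold in the knockout and in wild type (limma adjusted p = 0.704 and 0.226), as did the average of -0.57, or 1.48-fold lower (SE 0.16, limma adjusted p = 0.101). The exact permutation within genotype gave p = 0.015 for the average, unadjusted. The average passed without wild-type exercised replicate 2 (-0.67, limma adjusted p = 0.0429) or wild-type sedentary replicate 3 (-0.68, 0.0326), the arrays that overlapped. It was -0.43 without wild-type exercised replicate 3, the lowest array.

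**Figure D2:**
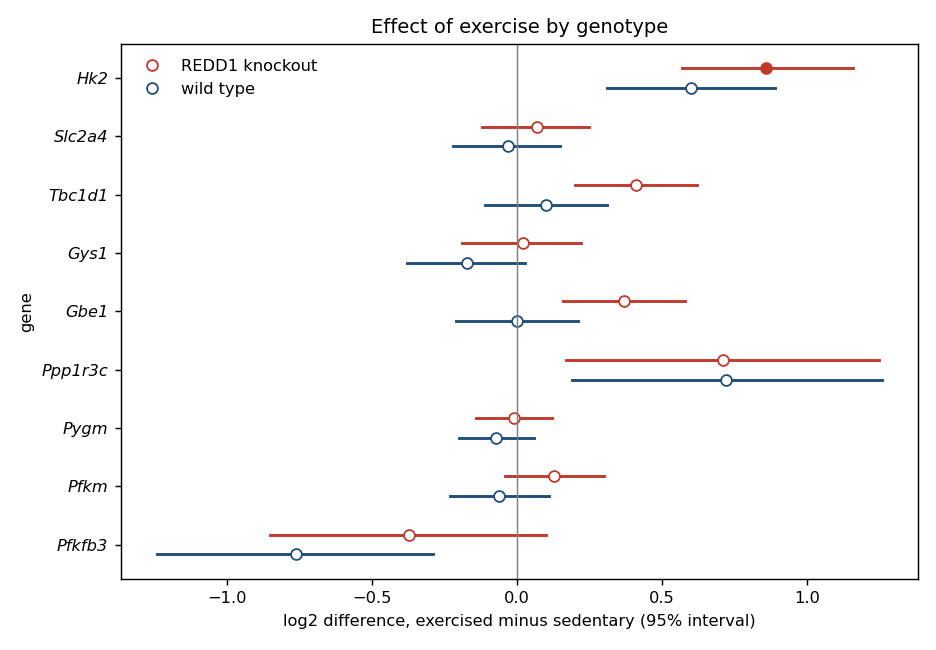
Log2 difference between exercised and sedentary muscle for each gene in REDD1 knockout (red) and wild type (blue), with the 95% interval of the limma fit; the filled point is the 1 called difference, that of Hk2 in the knockout. The Ppp1r3c points lie at 0.71 and 0.72, those of Pfkfb3 at -0.37 and -0.76.

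Tbc1d1 had the largest averaged genotype difference of the 9 members, though it was not called. It encodes a Rab GTPase-activating protein that holds GLUT4 vesicles inside the cell until AMPK or Akt phosphorylates it. Its levels were 9.18, 9.16 and 9.36 in exercised knockout muscle, against 8.56, 8.81 and 8.88 in exercised wild-type muscle. In sedentary mice they were 8.85, 8.76 and 8.86 in the knockout, against 8.60, 8.62 and 8.72 in wild type. Knockout arrays lay above wild-type arrays of the same condition in both cases, by only a small gap at rest. In exercised mice slow-fibre markers had a median genotype difference of 0.37 (0 of 8 called by limma, 3 at an unadjusted p under 0.05), with levels of -0.14 to 0.64 in knockout and -0.07 to -0.01 in wild-type arrays. Knockout exercised replicate 3, the highest of these, was also the highest array for Tbc1d1 and Ppp1r3c. Knockout sedentary replicate 3, at a slow-fibre level of 0.61, was the lowest of the 12 arrays for Ppp1r3c (9.87). Knockout exercised replicates 1 and 2, at slow-fibre levels of 0.26 and -0.14, had Tbc1d1 at 9.18 and 9.16. The part of fibre type was not tested.

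The genotype difference of Tbc1d1 was 0.48 after exercise (1.4-fold, SE 0.10, limma adjusted p = 0.0795) and 0.18 at rest (SE 0.10, limma adjusted p = 0.719). Averaged over conditions it was 0.33, or 1.26-fold (SE 0.07), just short of the threshold at limma adjusted p = 0.0515. In each of these 3 genotype comparisons 0 of 9 members were called by limma, where 0.175%, 0.138% and 0.546% of tested genes were; at an unadjusted p under 0.05 they held 1, 0 and 1 members, against 6.58%, 7.7% and 9.36% of tested genes. The averaged difference passed with quantile normalization (0.34, limma adjusted p = 0.0131), with array weights (0.31, 0.021), with the stricter low-value filter (0.33, 0.0439) and without wild-type exercised replicate 1 (0.28, 0.0469). It did not pass under the other settings tried, among them median centring, no moderation and both arrays that stand apart left out. Where the dim second cluster was averaged in, the difference after exercise was 0.23 (limma adjusted p = 0.707). That cluster lay between 4.16 and 4.61, above the table median on 2 of 12 arrays.

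With exercise the Tbc1d1 difference was 0.41 in the knockout (95% interval 0.20 to 0.62, limma adjusted p = 0.128), without overlap, and 0.10 in wild type (-0.11 to 0.31). Without wild-type exercised replicate 1 the knockout difference passed (limma adjusted p = 0.0461). That omission leaves the knockout difference at 0.41 and changes only the shared estimate of spread. The wild-type difference was then 0.19. The average, 0.25 as fitted (limma adjusted p = 0.101), was 0.30 without that array and passed (limma adjusted p = 0.0236). Gbe1, the branching enzyme that adds side branches to glycogen chains, was also without overlap between exercised and sedentary knockout arrays. Its levels were 8.97, 9.21 and 9.0 in exercised knockout muscle, against 8.57, 8.66 and 8.84 in sedentary knockout muscle, and the difference was 0.37 (95% interval 0.16 to 0.58, limma adjusted p = 0.181). In wild type they were 8.83, 8.91 and 8.94 after exercise, against 8.99, 8.85 and 8.84 in sedentary mice, and the interval of the difference ran from -0.21 to 0.21. In sedentary mice the knockout arrays were below the wild-type arrays for Gbe1, the nearest pair being equal at 2 decimals (difference -0.20, 95% interval -0.42 to 0.01).

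The difference of exercise effects, knockout minus wild type, was 0.37 for Gbe1 (95% interval 0.07 to 0.67) and 0.31 for Tbc1d1 (0.01 to 0.61). Their unadjusted p-values in limma's fit were 0.0189 and 0.0449, and both had an adjusted p of 0.997. No gene of the 13747 was called by limma for this difference (0% of tested genes), and 4.51% had an unadjusted p under 0.05. Ddit4, the gene knocked out, was also not called, although its difference was -1.66 (95% interval -2.33 to -1). The lack of calls therefore cannot show that the genotypes responded alike. Without wild-type exercised replicate 1, whose Tbc1d1 level of 8.56 was the lowest of all arrays, the difference was 0.33 for Gbe1 and 0.21 for Tbc1d1. With the second cluster averaged in, that of Tbc1d1 was 0.07.

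**Figure D3:**
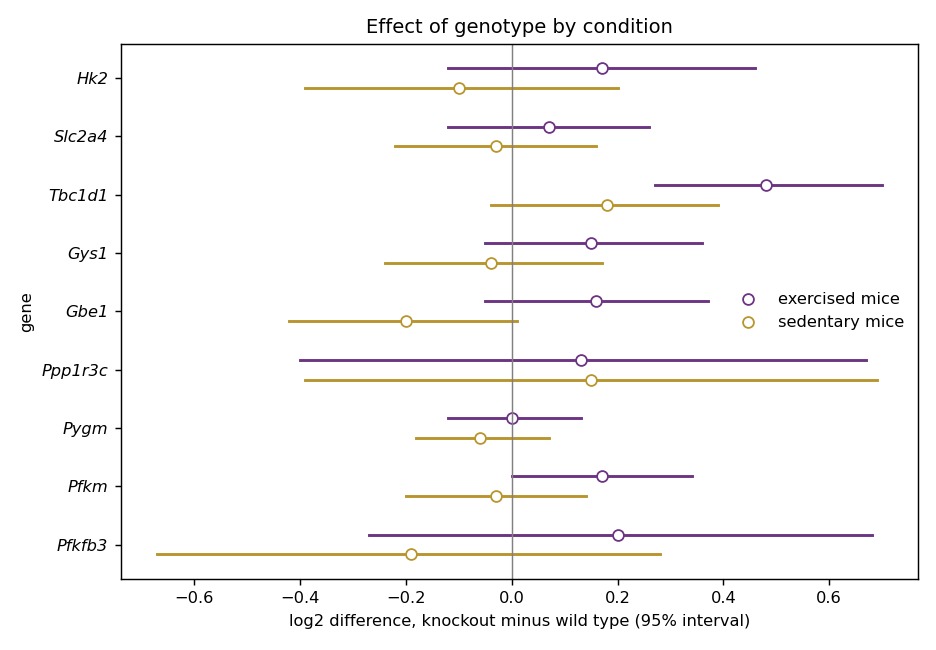
Log2 difference between REDD1 knockout and wild-type muscle for each gene in exercised (purple) and sedentary (gold) mice, with the 95% interval of the limma fit; no difference was called, so all points are open. Tbc1d1 lies at 0.48 in exercised and 0.18 in sedentary mice. Its interval excludes 0 in exercised mice only, being -0.04 to 0.39 in sedentary mice. The intervals of all other genes cross 0 in both conditions, that of Pfkm in exercised mice only just.

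Slc2a4, which encodes GLUT4 itself, was nearly flat. Its levels were 10.60, 10.63 and 10.60 in exercised knockout, 10.63, 10.54 and 10.45 in sedentary knockout, 10.37, 10.57 and 10.67 in exercised wild-type and 10.56, 10.63 and 10.51 in sedentary wild-type arrays. The exercise difference was 0.07 in the knockout (95% interval -0.12 to 0.25) and -0.03 in wild type (-0.22 to 0.15). The averaged interval, from -0.12 to 0.15, excludes a change as large as that of Hk2.

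Pygm, the glycogen phosphorylase of muscle, had the narrowest spread. Its levels stayed between 12.81 and 12.98 over the 12 arrays, and its pooled within-group SD of 0.04 was smaller than that of all but 0.0727% of tested genes. The exercise difference was -0.01 in the knockout (95% interval -0.14 to 0.12) and -0.07 in wild type (-0.20 to 0.06).

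Gys1, the glycogen synthase of muscle, lay at 10.57, 10.78 and 10.62 in exercised knockout and 10.58, 10.66 and 10.68 in sedentary knockout muscle. In wild type it lay at 10.28, 10.59 and 10.64 after exercise, against 10.69, 10.65 and 10.69 in sedentary mice. The wild-type groups did not overlap, yet the difference of -0.17 did not pass (95% interval -0.38 to 0.03, limma adjusted p = 0.71), and it was -0.06 without wild-type exercised replicate 1.

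Pfkm, the phosphofructokinase of muscle, lay at 11.83, 11.75 and 11.82 in exercised knockout muscle, against 11.48, 11.67 and 11.74 in exercised wild-type muscle. Its sedentary levels were 11.68, 11.71 and 11.61 in the knockout and 11.64, 11.80 and 11.64 in wild type. The genotype difference after exercise was 0.17 (95% interval 0.00 to 0.34, limma adjusted p = 0.767), and 0.09 without wild-type exercised replicate 1.

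**Figure D4:**
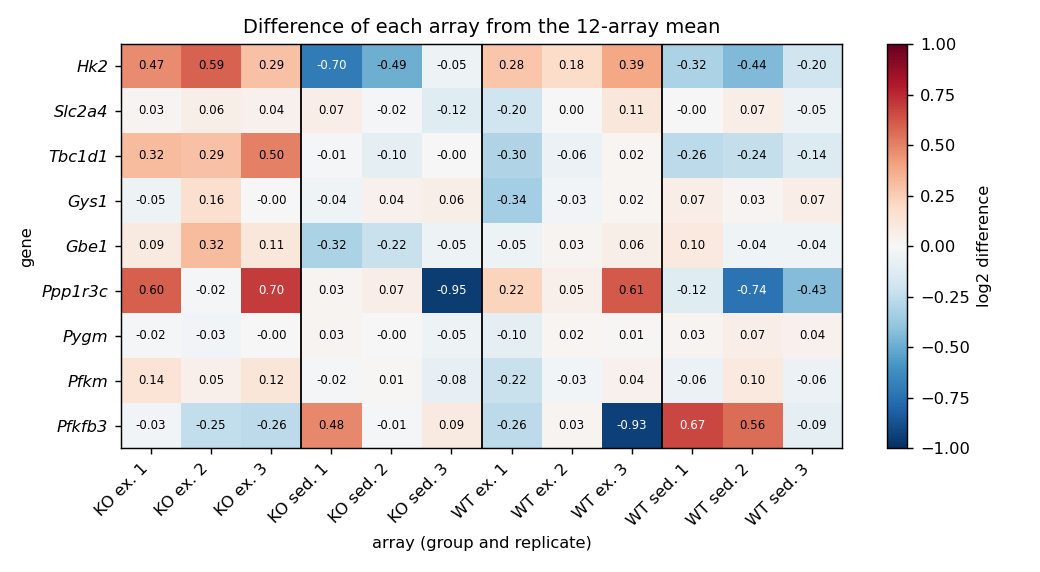
Log2 difference of each array from the gene's 12-array mean; rows are the 9 genes, columns the arrays by group and replicate, red above and blue below the mean. Wild-type exercised replicate 1 is the lowest of the 12 arrays for 5 genes, and the widest colours lie in the rows of Hk2, Ppp1r3c and Pfkfb3.

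One array weighed on several members at once. Wild-type exercised replicate 1 was the lowest of all 12 arrays for 5 of the 9 members, Slc2a4, Gys1, Pygm, Pfkm and Tbc1d1. It was also the lowest array for 18.6% of all tested genes, the largest such share of any array. In exercised mice 7 of the 9 differences between knockout and wild type were 0.13 or more, the others being Slc2a4 (0.07) and Pygm (0.00), with a median of 0.16 against 0.00 over all tested genes. Without that array they ranged from -0.03 for Pygm to 0.39 for Tbc1d1. Its muscle fibre markers lay at -0.02 and its Schwann cell markers at 0.78, and the part of other cells in its values was not tested.

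Groups of 3 arrays did not overlap for 5 of 9 members with exercise in the knockout (Hk2, Pfkm, Gbe1 and Tbc1d1 higher, Pfkfb3 lower) and for 4 of 9 in wild type (Hk2 and Ppp1r3c higher, Gys1 and Pygm lower). Over all tested genes 13.9% and 12.9% did so. Between genotypes it was 3 of 9 after exercise (Pfkm, Gbe1 and Tbc1d1 higher in the knockout) and 2 of 9 at rest (Tbc1d1 higher, Gbe1 lower), against 11.7% and 13.1% of tested genes. The members were chosen with results of these arrays known, so these shares are descriptions only.

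The order of the group means differed between members. Hk2 and Ppp1r3c were highest in exercised knockout muscle (10.65 ± 0.15 and 11.25 ± 0.39; SD, n = 3), followed by exercised wild type (10.48 ± 0.10 and 11.11 ± 0.29), and the exercised groups overlapped. Tbc1d1 was highest in exercised knockout muscle (9.23 ± 0.11), followed by sedentary knockout (8.82 ± 0.06), exercised wild type (8.75 ± 0.17) and sedentary wild type (8.65 ± 0.07). Of these neighbours only the first pair was free of overlap. The 4 means of Slc2a4 and of Pygm each spanned 0.07.

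The rest of the pathway was described through a list of genes grouped by function. Like the members, it was chosen with earlier results of these data known, so the contrast between them is a description only. It held 75 other genes of glucose transport, hexose phosphates, glycogen and glycolysis, of which 66 were paired with 1 symbol on the array, and 60 passed the filter. Of these 0 were called by limma in any of the 7 comparisons. At an unadjusted p under 0.05 there were 6 of 60 for exercise in the knockout and 3 of 60 in wild type, against 8.93% and 8.21% of tested genes. The median exercise difference was 0.03 in the knockout and -0.02 in wild type, beside 0.00 and -0.02 over all tested genes.

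Among the genes around GLUT4 traffic, 0 of 19 were called, and exercise differences ran from -0.35 to 0.17 in the knockout and from -0.24 to 0.14 in wild type. Rac1, a GTPase needed for contraction-stimulated GLUT4 movement, differed by -0.09 and -0.02 (SE 0.13). Rab10, a target of TBC1D4 in fat cells, differed by 0.04 and -0.01 (SE 0.15), and Sort1, which sorts GLUT4 into its vesicles, by -0.16 and 0.01 (SE 0.12).

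Of the other hexokinase and hexose phosphate genes, 0 of 5 were called. Ugp2, which makes the UDP-glucose that glycogen synthase uses, was 0.29 higher after exercise in the knockout (SE 0.10, limma adjusted p = 0.367), without overlap, and 0.07 higher in wild type. Pgm2l1 differed by 0.17 and -0.13 (SE 0.11), and Pgm2 by 0.10 in the knockout and 0.38 in wild type (SE 0.14, limma adjusted p = 0.44 in wild type).

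In glycogen synthesis 0 of 11 tested genes were called. Gyg, the glycogenin that primes new glycogen particles, differed with exercise by 0.05 in the knockout and -0.18 in wild type (SE 0.09). Ppp1r3a, the muscle-specific glycogen-targeting subunit and a relative of Ppp1r3c, differed by 0.12 and -0.18 (SE 0.10), and the phosphatase catalytic subunit gene Ppp1cb by 0.14 and -0.12 (SE 0.11). In glycogen breakdown 0 of 8 were called; Phka1, Phkb and Phkg1, subunits of the kinase that activates phosphorylase, differed by 0.05, 0.14 and 0.01 in the knockout and by 0.06, -0.16 and -0.12 in wild type.

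Of the genes beside Pfkm and Pfkfb3, 0 of 6 were called. Pfkfb4, of the same enzyme family as Pfkfb3, differed by 0.08 in the knockout and 0.19 in wild type (SE 0.11), Tigar by 0.09 and -0.10 (SE 0.10) and the muscle fructose bisphosphatase gene Fbp2 by -0.21 and -0.13 (SE 0.16). In lower glycolysis and lactate transport 0 of 11 were called. Gapdh, Eno3 and Tpi1 differed by -0.04, 0.03 and 0.02 in the knockout and by -0.01, 0.06 and -0.04 in wild type.

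**Figure D5:**
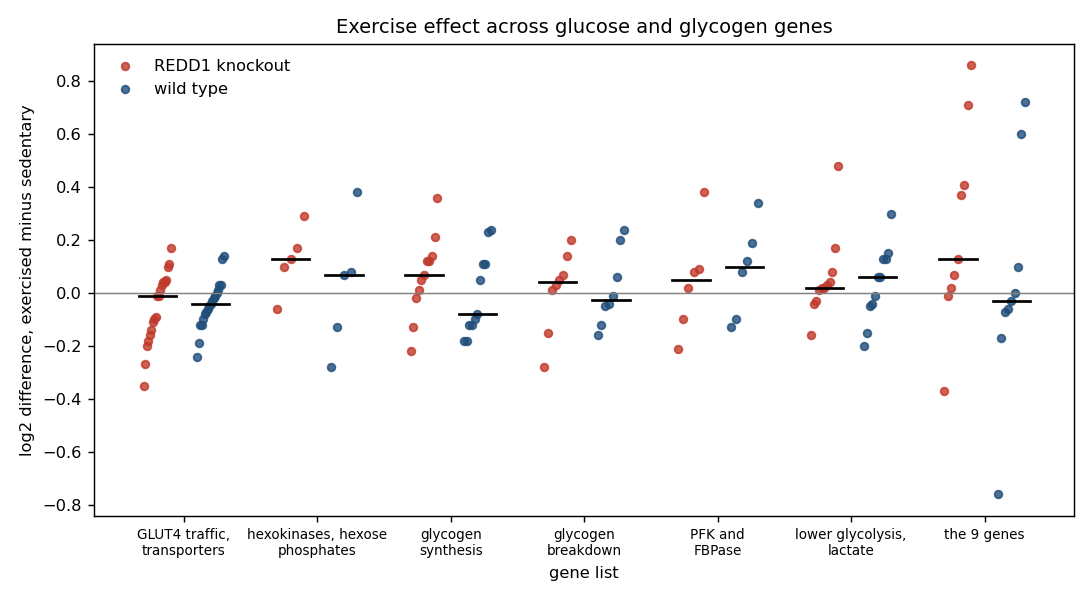
Log2 difference between exercised and sedentary muscle for the tested genes of 6 lists and for the 9 genes themselves, in REDD1 knockout (red) and wild type (blue); each point is a gene and each bar the list's median. Points of the 6 lists lie between -0.35 and 0.48, while those of the 9 genes reach 0.86 and -0.76.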

How the data were processed

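Plantaris RNA was labelled with biotin for whole-transcript Affymetrix arrays, per the labels' protocols, and Partek is the only tool in the submitters' processing notes. The deposited values are log2 expression per transcript cluster, a scale read from the spread of the values (lowest 0.36); the log base, background correction and normalization are not given in the sources used here. Array medians lay between 4.52 and 4.60. Clusters were named through the platform annotation, and the brightest cluster of each gene was kept. Genes above the table median (4.56) in at least 3 arrays entered limma 3.58.1 under R 4.3.3, with lmFit and an intensity-trended eBayes step, with 1 mean per group and 7 contrasts, Benjamini-Hochberg adjusted within each. The code was tested on simulated data. The number of arrays limits the precision. The members and lists were chosen with earlier results of these data known. Named genes are the 9 members, other list genes that were called or were among the 3 brightest of their list, Ddit4, and the 3 genes most like each called member by Pearson's r over the arrays. Alternatives were no and a stricter low-value filter (mean above the table median plus 1), other variance priors, median centring, quantile normalization, array weights, all clusters averaged, pairs of groups fitted alone, each array left out, and, added after the data were seen, both arrays that stand apart left out.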

Additional observations from a re-analysis of the deposited data

How the results depend on the processing

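Over 1368 values of single members under an alternative, no called value changed sign; 41 uncalled ones did, all with an absolute difference of at most 0.20 as reported. Without moderation, limma's fit called 0 genes for exercise in the knockout (38 as reported), with 0 members, 12 in wild type (78), 1 for knockout against wild type at rest (19), 1 after exercise (24), 67 for averaged exercise (220) and 23 for averaged genotype (75). In the moderated fit 1227 genes had an unadjusted p under 0.05 for exercise in the knockout. Without an intensity trend the counts were 24 for exercise in the knockout and 42 for averaged genotype. With array weights they were 83 for exercise in the knockout (2 members, Hk2 and Tbc1d1), 127 in wild type (1, Hk2), 89 for genotype after exercise (1, Tbc1d1), 348 for averaged exercise (3, Hk2, Ppp1r3c and Tbc1d1) and 193 for averaged genotype (1, Tbc1d1). With the compared groups fitted alone, 25 genes and 0 members were called for exercise in the knockout (Hk2 at limma adjusted p = 0.0708), 1 member in wild type (Hk2, 0.0277) and 13 genes for genotype after exercise. Quantile normalization called 34 genes higher and 11 lower for exercise in the knockout (33 and 5 as reported) and 1 member, Tbc1d1, for genotype after exercise and averaged, and the stricter filter 1 for averaged genotype. Without both arrays that stand apart, 1 member was called in wild type (Hk2, limma adjusted p = 0.0221), 2 for averaged exercise (Hk2 and Tbc1d1), and 45 and 139 genes for genotype after exercise and averaged. Leaving out each array in turn gave 0 to 2 members and 16 to 71 genes for exercise in the knockout, 0 to 1 and 46 to 90 in wild type, 1 to 2 and 144 to 220 for averaged exercise, 0 to 1 and 38 to 149 for averaged genotype, 5 to 40 genes for genotype after exercise and 6 to 27 at rest. The difference of exercise effects had 0 called genes in each (620 genes at an unadjusted limma p under 0.05 with all arrays). The exact permutation within genotype put Pfkfb3, Ppp1r3c and Tbc1d1 under 0.05 (p = 0.015, 0.015 and 0.02), unadjusted. The causes of these shifts were not tested. No paired analysis was possible because the labels number the samples through the series and give no replicate numbers shared between groups.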

Other observations

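Outside the rule for named genes, and chosen after their values were seen, a pair of further list genes had the smallest unadjusted p-values for averaged exercise. Slc16a1 encodes the lactate and pyruvate transporter MCT1. Its log2 levels were 8.96, 9.10 and 9.02 in exercised knockout muscle, against 8.46, 8.41 and 8.76 in sedentary knockout muscle. In wild type they were 9.17, 9.16 and 9.45 after exercise, against 8.58, 9.02 and 9.29 in sedentary mice. The averaged exercise difference was 0.39 (SE 0.11, limma adjusted p = 0.102) and the averaged genotype difference -0.33 (SE 0.11, limma adjusted p = 0.292). Nhlrc1 encodes malin, a ubiquitin ligase of the glycogen regulator laforin, and differed by 0.30 with averaged exercise (SE 0.08, limma adjusted p = 0.0816).

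The genes that followed Gys1 most closely, also outside the rule because Gys1 was not called, were Prkaa2, the AMPK catalytic subunit alpha 2 (Pearson's r = 0.966 over 12 arrays, no p attached), and Insr, the insulin receptor (0.962). The lowest array for Gys1, Prkaa2 and Insr alike was wild-type exercised replicate 1, at 10.28, 10.44 and 7.93. Without that array the values of r were 0.918 and 0.876 over 11 arrays.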
